A study of Homo sapiens and Mus musculus with 36 samples.

Results

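Apolipoprotein RNAs were read by RNA-seq in the human liver cancer lines HepG2 and Huh7 for 10 genes: APOA1, APOA2, APOA4, APOA5, APOB, APOC1, APOC3, APOE, APOH and APOM. They are 10 of the 26868 gene symbols with a row in at least 1 of the 10 deposited human comparison tables, and they were taken by symbol, not by how they moved. APOA5 had a row in 9 tables, with none in the Huh7 shEZH2 table, and each of the other genes had one in all 10. The human libraries numbered 28, in 14 groups of 2. HepG2 cells received 5 uM MS7126, C24, MS7126N1 or MS7126N2 for 48 h, against DMSO for 48 h. MS7126 is labelled a PROTAC, a molecule built to have its target degraded, and the target is EZH2, the methyltransferase subunit of the Polycomb complex PRC2. C24 is labelled the matched EZH2 inhibitor, and MS7126N1 and MS7126N2 are labelled analogs without PROTAC action. Huh7 cells received 5 uM MS7126 against DMSO, for 24 h by their own label, while a label elsewhere in the series gives 48 h for Huh7, so the time is uncertain. Hairpins in the lentiviral pLKO.1-puro vector, kept under puromycin, were directed at EZH2 (Huh7, HepG2) or at SREBF2, the gene of the sterol-regulated factor SREBP2 (HepG2, hairpins #664, #665 and #667), each against a control vector that the labels call both empty and scrambled. A single control pair served the 4 HepG2 hairpin groups, and all 4 HepG2 compounds share 1 pair of DMSO libraries. Each group is 1 established line at 1 dose or hairpin, and whether its libraries are separate cultures is not stated. The p-values thus reflect the spread among these libraries alone, which may be technical. In the Huh7 hairpin experiment the spread beyond counting noise was small, with a common coefficient of variation of 0.0187. Small p-values there rest on that spread.

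Apolipoproteins are the proteins of lipoprotein particles, and the liver makes most of them. APOB is the structural protein of very-low-density lipoprotein, and it is loaded with lipid by MTTP as it is made. APOA1 and APOA2 are the main proteins of high-density lipoprotein, APOE is a ligand for receptor uptake of lipoproteins, and APOC1 and APOC3 are small exchangeable proteins that slow particle clearance, APOC3 also restraining lipoprotein lipase. APOA5 favours triglyceride hydrolysis, APOA4 is made mainly in the intestine, APOM carries sphingosine-1-phosphate on high-density lipoprotein, and APOH, beta-2-glycoprotein I, is a plasma phospholipid-binding protein. 

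Several of the genes are neighbours. On GRCh38 chromosome 11 APOA5, APOA4, APOC3 and APOA1 lie within 48584 bases (116789367 to 116837950), APOC3 on the plus strand and the other 3 on the minus strand. On chromosome 19 APOE and APOC1 lie within 13596 bases (44905754 to 44919349), both on the plus strand. APOB is on chromosome 2 (21001429 to 21044073, minus), APOA2 on chromosome 1 (161222292 to 161223631, minus), APOH on chromosome 17 (66212033 to 66256525, minus) and APOM on chromosome 6 (31652416 to 31658210, plus). APOA1 overlaps the antisense gene APOA1-AS, APOA4 the antisense gene AP006216.3, APOB the opposite-strand gene AC010872.1, and APOM the opposite-strand gene BAG6. APOE and APOC1 both overlap AC011481.3 on their own strand. Whether counting used strand is not given in the sources used here, so reads of such partners cannot be told apart. APOC1 has a near-identical copy, APOC1P1, and its values are uncertain for that reason.

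Promoter sequences were available from RefSeq (GRCh38.p14) for 7 of the 10 genes, APOA2, APOA4, APOA5, APOC1, APOE, APOH and APOM, as 250 bases before and 50 bases after an annotated start. Those of 4 genes are printed, 5′ to 3′ on the gene's own strand, because they belong to genes that moved in different comparisons below: APOH and APOE were lower with MS7126 in both lines, APOA5 in HepG2, and APOA2 had the lowest fold change of the 9 genes measured with the Huh7 hairpin. Capitals mark motif matches. The APOA5 sequence is the first of its 2 listed starts and the APOE sequence the first of its 3.
APOH, chr17:66229366-66229665, minus strand: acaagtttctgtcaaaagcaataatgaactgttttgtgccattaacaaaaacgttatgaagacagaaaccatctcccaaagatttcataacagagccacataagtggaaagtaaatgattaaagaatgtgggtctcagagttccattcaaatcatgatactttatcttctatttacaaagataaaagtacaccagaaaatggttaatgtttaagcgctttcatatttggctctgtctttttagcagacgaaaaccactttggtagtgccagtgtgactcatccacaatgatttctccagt
APOE, chr19:44905546-44905845, plus strand: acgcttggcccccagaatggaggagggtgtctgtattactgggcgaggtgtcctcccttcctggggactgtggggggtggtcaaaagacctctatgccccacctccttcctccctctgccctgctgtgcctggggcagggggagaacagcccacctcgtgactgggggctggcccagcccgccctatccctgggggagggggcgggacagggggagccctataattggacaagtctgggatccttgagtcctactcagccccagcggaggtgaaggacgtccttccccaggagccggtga
APOA5, chr11:116792371-116792670, minus strand: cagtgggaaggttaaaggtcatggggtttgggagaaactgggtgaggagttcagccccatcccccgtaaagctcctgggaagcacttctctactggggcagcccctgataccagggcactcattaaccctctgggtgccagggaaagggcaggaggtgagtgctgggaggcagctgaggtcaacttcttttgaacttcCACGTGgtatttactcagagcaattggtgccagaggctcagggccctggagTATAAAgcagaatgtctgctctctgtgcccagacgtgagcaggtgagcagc
APOA2, chr1:161223579-161223878, minus strand: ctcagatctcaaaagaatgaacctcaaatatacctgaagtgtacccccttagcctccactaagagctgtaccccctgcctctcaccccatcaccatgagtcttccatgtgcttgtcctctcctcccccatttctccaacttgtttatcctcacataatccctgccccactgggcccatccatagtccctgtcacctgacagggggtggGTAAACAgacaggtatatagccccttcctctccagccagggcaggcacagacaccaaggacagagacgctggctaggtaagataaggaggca
The motifs searched on both strands, each with its share of the 35116 promoters of the same length in the table, were CAAAGTCCA (HNF4, 0.384%), AGGTCA repeated with 1 base between (nuclear receptors, 0.0228%), the HNF1 palindrome (0.0057%), its shorter form, which overlaps it (0.322%), TTGCNNAA (C/EBP, 10.5%), TGTTTAC (FOXA, 3.42%), TCACNCCAC (SREBP, 1.13%), TATAAA (core promoter element, 11.5%), TGACGTCA (CREB, 1.85%), TGATGNAA (ATF4 with C/EBP, 3.62%) and CACGTG (E-box, 7.26%). Over all 7 genes' sequences there were 3 matches. APOA5 held TATAAA from base -1 relative to the start and CACGTG from base -52. APOA2 held the FOXA motif, on the other strand as GTAAACA, from base -42. None of the other sequences held any of these letters in this window, and no match overlapped another. A match describes letters, not a bound site.

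Values per library were read in the Huh7 shEZH2 comparison, with totals of 11240538 and 11954322 estimated counts for the hairpin and 11300070 and 10106193 for the control. For the other 9 the authors' deposited tables give a mean, a log2 fold change, its standard error (SE) and the adjusted p for each gene, and the mean normalized counts added up to between 16686567 and 40979203 a table. A gene was called where the adjusted p was under 0.05. The liver marker ALB was high in both lines. It averaged 35524 normalized counts in the HepG2 MS7126 table and 194266 in the Huh7 MS7126 table. Of other cell types' markers in the HepG2 MS7126 table, the immune PTPRC (25.5), the endothelial PECAM1 (33.4) and the fibroblast COL1A2 (11.1) averaged few normalized counts, while the fibroblast COL1A1 (722), the intestinal VIL1 (2946), LYZ (7369) and the biliary KRT19 (8220) averaged more. EZH2 itself fell with the Huh7 hairpin to 13.31 and 13.98 CPM (counts scaled to a common library size), against 82.6 and 89.7 CPM in the control. For the shEZH2-labelled HepG2 libraries the authors' deposited table puts EZH2 0.90 (SE 0.38, adjusted p = 0.0337) above control on the log2 scale, which goes against the label. That SE is wide for a mean of 1225 normalized counts, as APOL2, at 1339, had an SE of 0.087 there. SREBF2, at 4412, also had a wide SE and was not called (0.43, SE 0.35). The size of the EZH2 change is thus loosely known. Every direction drawn from those libraries below carries the limit of the unsettled label. SREBF2 was lower with each of its hairpins in the authors' deposited tables, by log2 fold changes of -1.58 (#664), -1.08 (#665) and -2.35 (#667).

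Levels in the untreated groups spanned several orders of magnitude. In HepG2 with DMSO the level in CPM of normalized counts per kilobase of merged exons, rebuilt from the authors' deposited table of C24, ran APOA2 4435, APOA1 4031, APOE 1925, APOH 569, APOC1 300.4, APOC3 258, APOB 141, APOM 38.8, APOA5 10.3 and APOA4 0.745. The HepG2 control vector gave the same order of the 10 genes in the authors' deposited table of #664, from 8790 for APOA2 to 2.996 for APOA4. In Huh7 with DMSO, the authors' deposited table gave APOA1 1514, APOE 1339, APOA2 494, APOC1 294, APOB 228, APOH 90.8, APOC3 88.8, APOM 3.67, APOA4 1.53 and APOA5 0.190 on the same scale. Where single libraries could be read, the 2 Huh7 control libraries gave APOE 1353 and 1298, APOA1 937 and 902, and APOA2 463 and 452 on that scale, so the 3 did not overlap. APOB (261 and 271) and APOC1 (262 and 240) overlapped, as did APOH (68.5 and 79.6) and APOC3 (73.0 and 64.5). The spread between HepG2 libraries was not analysed here, so the order of close neighbours in HepG2 has no error beside it. Together the 10 genes took 1.38% of normalized counts in HepG2 with DMSO and 0.786% in Huh7 with DMSO. With the control vector the share was 2.26% in HepG2 and, without APOA5, 0.746% in Huh7, so it differed between control groups of HepG2.

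**Figure D1:**
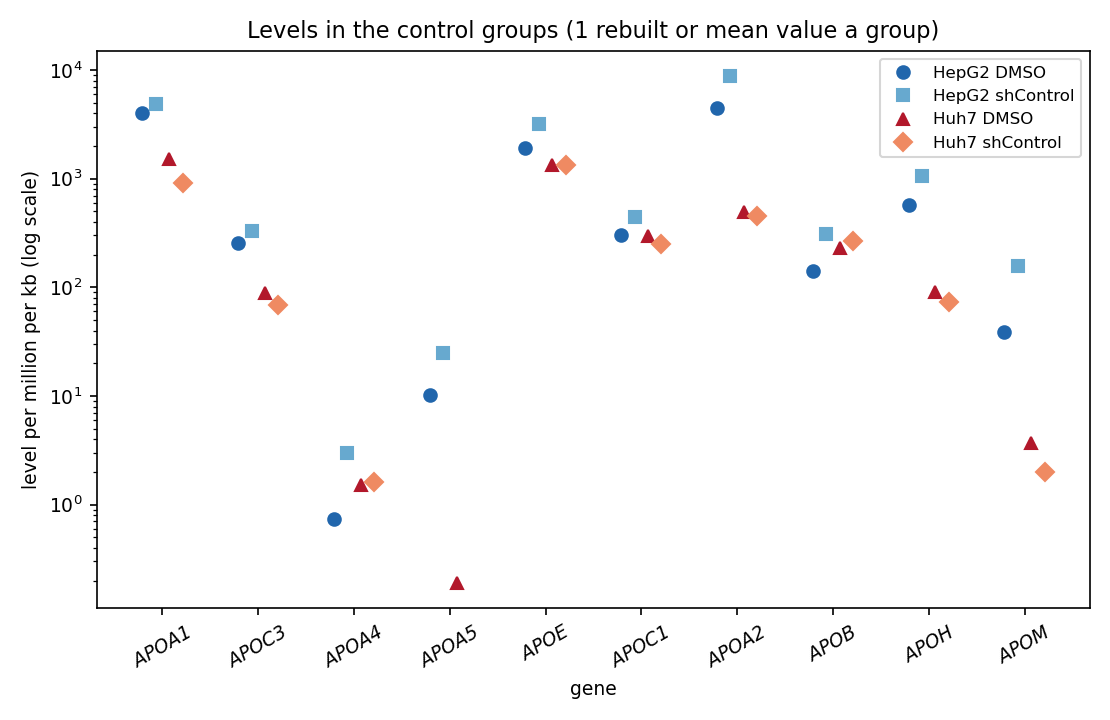
Level in CPM of normalized counts per kilobase of merged exons (log scale) of each apolipoprotein gene in the 4 control groups, 1 value a group. APOA2 and APOA1 are at the top in HepG2, APOA5 sits at 10.3 in HepG2 with DMSO and 0.190 in Huh7 with DMSO, and APOA4 is low in all 4 groups.

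Across the 10 comparisons, APOA1 and APOE were called in 7 each: both higher in 4 and lower in 3. APOC3 was higher in 4 and lower in 1, APOA2 and APOC1 likewise, APOH was higher in 2 and lower in 4, and APOM was higher in 4 and lower in none. APOB was higher in 3 and lower in 1, APOA5 higher in 3 and lower in 2, and APOA4, the least abundant in HepG2, was higher in 2. Comparisons that share control libraries are not independent of each other.

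**Figure D2:**
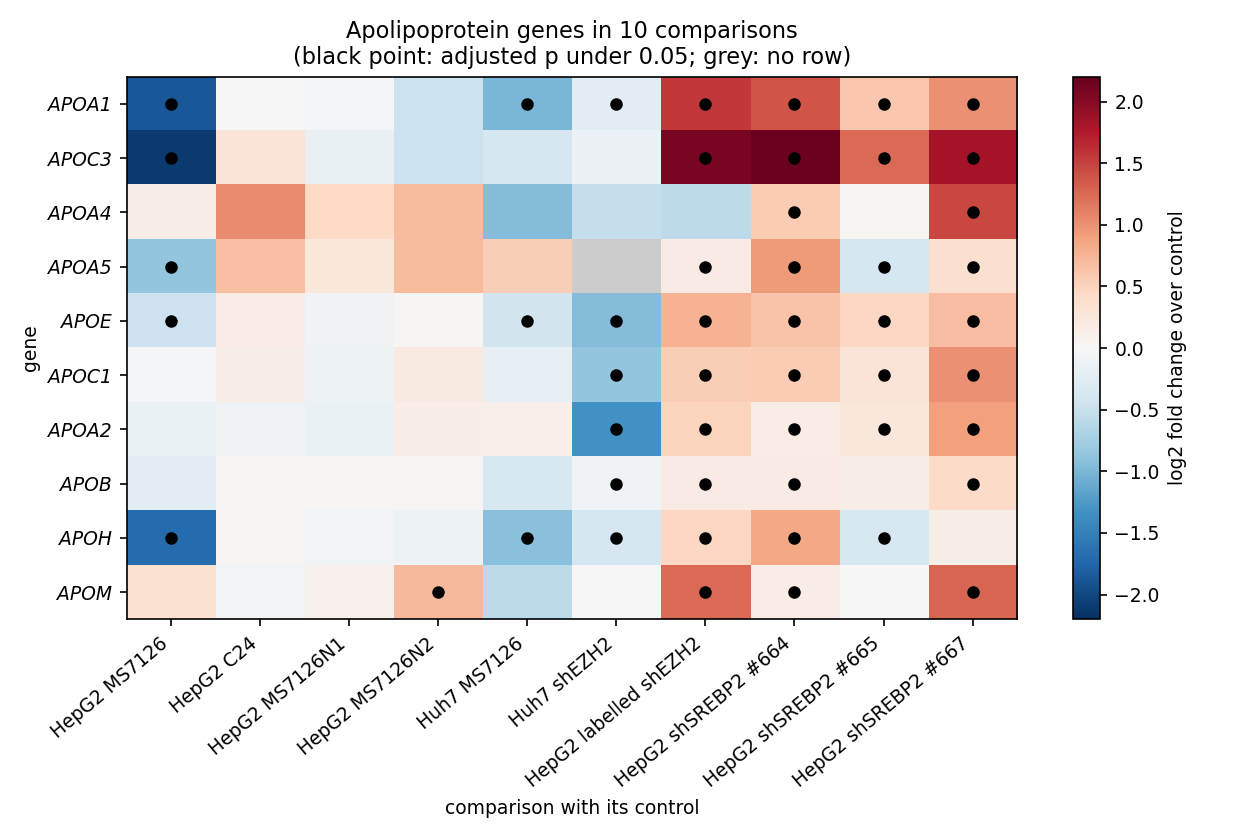
Log2 fold change over control (colour) of the 10 apolipoprotein genes (rows) in the 10 comparisons (columns), with a black point where the adjusted p is under 0.05 and grey where a table has no row. The MS7126 and Huh7 hairpin columns hold called genes on the lower side only, and 3 of the 4 HepG2 hairpin columns on the higher side only, APOA5 and APOH being lower with #665.

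MS7126 in HepG2 lowered 5 of the 9 genes that had an adjusted p and raised none. Over all genes with an adjusted p in that table, 8.06% were called lower and 7.44% higher, and the median log2 fold change was -0.46 over those 9 and -0.35 over all 10, against 0.01 over all genes tested. The fall was deepest in APOC3, the lipoprotein lipase inhibitor. Its level rebuilt from the authors' deposited table was 663 normalized counts with MS7126, against 2863 with DMSO (log2 -2.11, SE 0.17, adjusted p = 2.09e-32). APOA1, the main protein of high-density lipoprotein, stood at 27860.5 with MS7126, against 101740 with DMSO in the authors' deposited table, 27.4% of the DMSO level (log2 -1.87, SE 0.12, adjusted p = 2.05e-48). APOH, from another chromosome, stood at 3438 with MS7126, against 11063 with DMSO in the authors' deposited table (log2 -1.69, SE 0.15, adjusted p = 3.47e-26). These 3 genes had the lowest fold changes of the 10.
APOA5 fell less, by 0.87 on the log2 scale (SE 0.28, adjusted p = 0.0193), and APOE by 0.46 (SE 0.12, adjusted p = 0.00171), both in the authors' deposited table. APOE's neighbour APOC1 was not called (log2 -0.04, 95% interval -0.38 to 0.30), nor were APOA2 (-0.15, -0.42 to 0.13), APOB (-0.23, -0.47 to 0.01) and APOM (0.33, -0.07 to 0.73). APOA4 averaged 20.5 normalized counts and has no adjusted p in the authors' deposited table. Of the 4 genes of the chromosome 11 cluster 3 were lower, and of the 2 on chromosome 19 APOE alone. The liver identity markers moved with them: 6 of 8 were lower and 1, AHSG, higher, with a median of -0.86, and ALB itself was at -0.97 (SE 0.13) in the authors' deposited table. SREBF2 RNA was also lower in that deposited table (-1.01, SE 0.17), and EZH2 RNA was not called (-0.29, adjusted p = 0.580). Of other cell types' markers, KRT19 (-0.93), LYZ (-0.71), the biliary SPP1 (-0.69) and COL1A1 (-0.52) were called lower in the authors' deposited table and none higher. The part of all these genes in the result was not tested, and in bulk samples fewer cells of a type and less RNA per cell cannot be told apart.

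None of these 5 genes was called lower with the matched inhibitor or either analog, at the same dose and time and against the same DMSO libraries. With C24 none of the 9 genes with an adjusted p was called, by the authors' deposited table, where 3.01% of all genes tested were higher and 4.01% lower. Without adjustment 2 genes were under 0.05 in the authors' deposited table, APOA5 (log2 0.67) and APOC3 (0.29), both on the higher side. SREBF2 RNA was higher with C24 (0.53, SE 0.13) in that deposited table, and EZH2 RNA was not called. Neither of them was called with MS7126N1 or MS7126N2 in the authors' deposited tables. With MS7126N1 none of 10 was called, in the authors' deposited table, which called 0.0744% of genes higher and 0.085% lower, and none of the 10 had an unadjusted p under 0.05. With MS7126N2 1 of 10 was called, APOM, which rose by 0.71 (SE 0.18, adjusted p = 0.0196) in the authors' deposited table, where 0.362% of genes tested were higher and 0.341% lower. APOA1 stood at -0.47 (adjusted p = 0.0825) and APOC3 at -0.46 (adjusted p = 0.341) with MS7126N2 in that deposited table. Without adjustment 4 of the 10 genes were under 0.05 with MS7126N2 there. APOA1 and APOC3 were on the lower side, and APOM and APOA5 (log2 0.69, adjusted p = 0.378) on the higher side. Of the 8 liver identity markers, C24 had 2 higher (TF 0.68, SERPINA1 0.51) and none lower, in the authors' deposited tables. MS7126N2 had 2 lower there (FGB -0.55, FGA -0.53) and none higher, and MS7126N1 had none called. Of other cell types' markers, COL1A1 was lower with C24 (-0.77) and no other was called with these 3 compounds. The part of these markers in the result was not tested.
Each pair of the 4 compounds was set against each other, 6 pairs in all, as the difference of their log2 fold changes from the authors' deposited tables, with p-values adjusted over all genes within a pair. MS7126 was below C24 in 5 genes, where 2.84% of all genes were below: APOC3 (-2.40, SE 0.22), APOA1 (-1.87, SE 0.16), APOH (-1.73, SE 0.18), APOA5 (-1.54, SE 0.39) and APOE (-0.62, SE 0.17), the last with an adjusted p of 0.00660. It was below MS7126N1 in 3 genes, where 1.93% of all genes were below: APOC3 (-1.95), APOA1 (-1.84) and APOH (-1.62). It was below MS7126N2 in 4, where 0.909% of all genes were below: APOC3 (-1.65), APOH (-1.57), APOA5 (-1.55) and APOA1 (-1.40). None of the 10 was called above in these 3 pairs, where 1.87% (C24), 1.32% (MS7126N1) and 0.443% (MS7126N2) of all genes were. None was called for C24 minus MS7126N1 (0.0387% of all genes higher, 0.0719% lower), C24 minus MS7126N2 (0.233% higher, 0.1% lower) or MS7126N1 minus MS7126N2 (0.0388% each way). There APOC3 stood 0.75 higher with C24 than with MS7126N2 (95% interval 0.33 to 1.18, adjusted p = 0.122). For APOA2, MS7126 and C24 differed by -0.08 (95% interval -0.44 to 0.29), and for APOC1 by -0.17 (-0.61 to 0.26). These tests leave out the covariance that the shared DMSO libraries bring. With it set to 0.5 times the product of the SEs, 18 gene and pair combinations were called in place of 12.

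**Figure D3:**
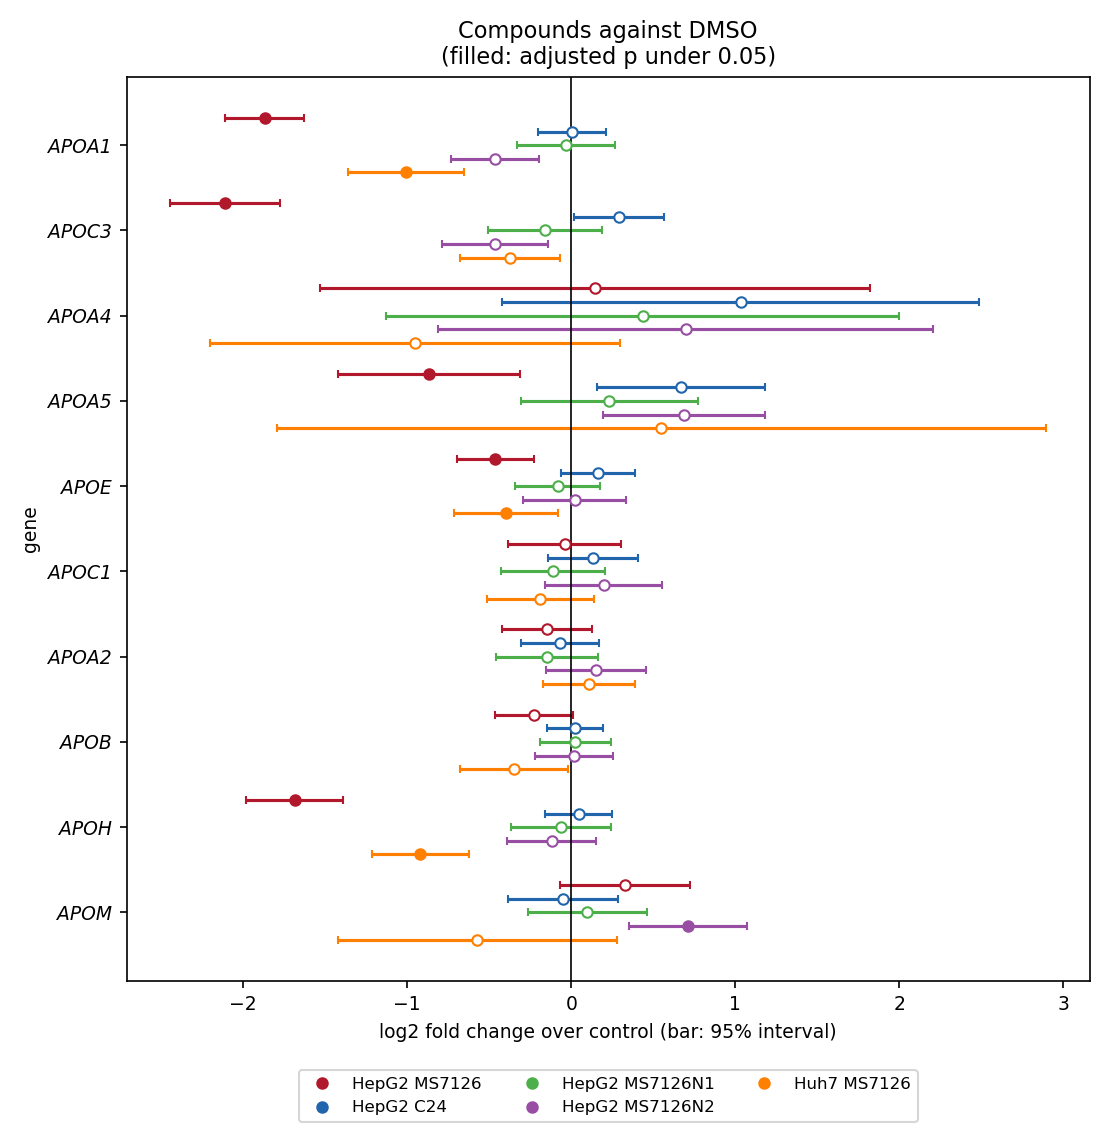
Log2 fold change over DMSO with its 95% interval for each apolipoprotein gene (rows) and compound (colours, MS7126 first), filled where the adjusted p is under 0.05. APOA1, APOC3 and APOH lie between -1.69 and -2.11 with MS7126 in HepG2 and between -0.47 and 0.29 with the other 3 HepG2 compounds.

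In Huh7, MS7126 lowered APOA1, APOH and APOE and raised none of the 10, by the authors' deposited table, in which 16.3% of all genes tested were lower and 17.5% higher. APOA1 was at 23016 normalized counts with MS7126, against 46327 with DMSO in the authors' deposited table (log2 -1.01, SE 0.18, adjusted p = 2.63e-07). APOH was at 1214 with MS7126, against 2296 with DMSO (log2 -0.92, SE 0.15, adjusted p = 2.31e-08), also from the authors' deposited table. APOE was at 26400 with MS7126, against 34771.5 with DMSO (log2 -0.40, SE 0.16, adjusted p = 0.0427 in the authors' deposited table). Its adjusted p became 0.0516 when every gene with a p was adjusted together. APOC3 lay just outside the threshold at -0.37 (adjusted p = 0.0500448 in the authors' deposited table). APOB was at -0.35 (adjusted p = 0.0934), and APOA2, APOC1, APOM, APOA4 and APOA5 were not called either, APOA5 averaging 9.73 normalized counts. EZH2 RNA (-0.46, SE 0.13) and SREBF2 RNA (-0.39, SE 0.12) were also called lower with MS7126 in Huh7, in the authors' deposited table. Their part in the apolipoprotein changes was not tested. By the authors' deposited table, liver identity markers were lower in 7 of 8 cases, ALB by 0.92 (SE 0.12) on the log2 scale. Of other cell types' markers, KRT19 (1.72), the biliary SOX9 (0.44), COL1A1 (2.36, mean 46.9 normalized counts) and PTPRC (4.51, mean 32.2) were higher, and SPP1 (-0.72), PECAM1 (-0.89), LYZ (-0.48) and the intestinal CDX2 (-1.69) lower, in the authors' deposited table. The part of these markers in the result was not tested. 
The lines were compared as HepG2 minus Huh7 fold changes, from separate experiments at times that may differ. The fall was deeper in HepG2 for APOC3, at -2.11 in HepG2 and -0.37 in Huh7 (difference -1.74, SE 0.23, adjusted p = 2.79e-11). It was deeper for APOA1 (difference -0.86, SE 0.22, adjusted p = 0.00367) and for APOH (difference -0.77, SE 0.21, adjusted p = 0.0110). Of all genes, 2.65% had a lower fold change in HepG2 and 3.06% a higher one. For APOE the values were -0.46 in HepG2 and -0.40 in Huh7, with a difference of -0.07 (95% interval -0.46 to 0.33).

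Knockdown of EZH2 in Huh7 lowered 6 of the 9 genes measured there and raised none, by edgeR's quasi-likelihood test with Benjamini-Hochberg adjustment. The background was 19.3% of all genes lower and 19.5% higher, and the genes' median log2 fold change was -0.37, against 0.00 over all genes. APOA2, which MS7126 left uncalled in both lines, stood at 102 and 107 CPM in the shEZH2 libraries, against 266 and 260 CPM in the control. APOE stood at 830 and 840 CPM with shEZH2, against 1646 and 1582 CPM in the control. APOC1, its neighbour, stood at 117 and 117 CPM with shEZH2, against 222 and 204 CPM in the control. In each of these 3 both hairpin libraries lie below both control libraries, with a gap wider than the spread within either group. The log2 fold changes were -1.33 for APOA2 (SE 0.04, edgeR adjusted p = 2.65e-13), -0.95 for APOE (SE 0.02, edgeR adjusted p = 2.55e-14) and -0.86 for APOC1 (SE 0.04, edgeR adjusted p = 2.43e-10). SEs beside edgeR values were computed back from its test score. The authors' deposited SEs were larger: 0.058 for APOA2, 0.027 for APOE and 0.062 for APOC1.
The fall was smaller in APOH and APOA1. APOH stood at 67.5 and 68.1 CPM with shEZH2, against 81.1 and 94.4 CPM in the control (log2 -0.37, SE 0.06, edgeR adjusted p = 0.000234). APOA1 stood at 1116 and 1109 CPM with shEZH2, against 1343 and 1297 CPM in the control (log2 -0.25, SE 0.02, edgeR adjusted p = 1.28e-07). The groups did not overlap in either gene. APOB stood at 3807 and 3708 CPM with shEZH2, against 3901 and 4051 CPM in the control (log2 -0.08, SE 0.02, edgeR adjusted p = 0.00246). That call was lost with DESeq2 (adjusted p = 0.0518), in the authors' deposited table (adjusted p = 0.0502) and without shEZH2 replicate 2 (edgeR adjusted p = 0.0818).
APOC3 was not called, at 36.9 and 42.4 CPM with shEZH2, against 46.1 and 40.8 CPM in the control, and the groups overlap. APOM stood at 4.06 and 2.66 CPM with shEZH2, against 3.30 and 3.39 CPM in the control, with the control libraries between the hairpin libraries. APOA4 stood at 1.852 and 1.497 CPM with shEZH2, against 2.585 and 2.196 CPM in the control, which is 21 and 18 reads against 29 and 22, and was not called. Groups did not overlap in 7 of 9 genes, all lower with the hairpin, where 34.5% of all genes tested lay lower without overlap and 34.1% higher. The 9 genes together took 0.614% and 0.603% of the libraries with shEZH2, against 0.746% and 0.747% in the control. SREBF2 RNA was also lower with shEZH2, at -0.51 (SE 0.04) by edgeR, and its part in the result was not tested. Of the liver identity markers, 6 of 8 were lower and 2 higher with shEZH2 by edgeR, with ALB at -0.53 (SE 0.01). COL1A2, a fibroblast collagen, was at 3.08 (SE 0.12), and the intestinal factor CDX2 at 1.26 (SE 0.05) by edgeR. Of the marker lists, 3 of 3 fibroblast genes measured and 2 of 3 intestinal genes were higher. Of 4 biliary genes 3 were higher (SPP1 1.35, EPCAM 0.84, SOX9 0.34) and KRT19 lower (-0.95), and of 3 immune genes CD68 was higher (0.97) and LYZ lower (-0.16), by edgeR. The endothelial PECAM1 was lower (-1.32). The part of these markers in the result was not tested.

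**Figure D4:**
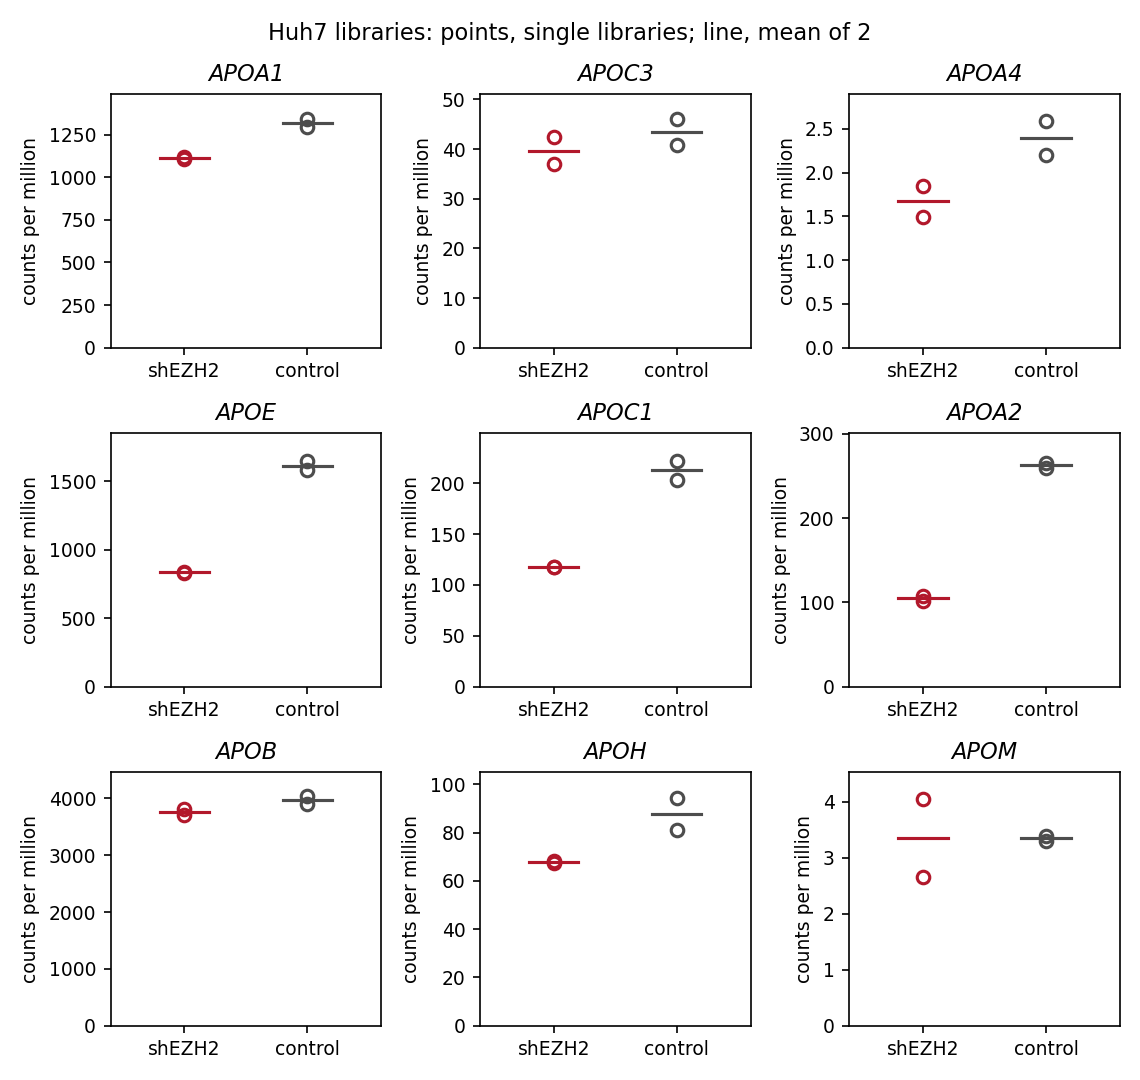
CPM of the 9 measured apolipoprotein genes in Huh7, shEZH2 libraries at left and control libraries at right, with single libraries as points and the mean as a line. APOE, APOC1 and APOA2 are separated widely, while APOC3 and APOM overlap.

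Set side by side in Huh7, the hairpin and the compound lowered different genes most. The test took the difference of the deposited log2 fold changes, shEZH2 minus MS7126, from experiments that share no libraries, and 5 of 9 genes differed, where 16.2% of all genes were lower with the hairpin and 15.5% higher. APOA2 was at -1.33 with shEZH2 and 0.11 with MS7126 (difference -1.43, SE 0.15), in the authors' deposited tables. APOC1 (difference -0.67, SE 0.18) and APOE (difference -0.56, SE 0.16) were also lower with the hairpin. APOA1 was at -0.25 with shEZH2 and -1.01 with MS7126 in the authors' deposited tables (difference 0.76, SE 0.18), and APOH was at -0.37 and -0.92 in that order (difference 0.55, SE 0.18). The experiments also differ in the vector and its selection, which cannot be told apart from the agent, and no time is given for the hairpin libraries.

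In the HepG2 libraries labelled shEZH2, whose EZH2 RNA was above control, 9 of the 10 genes were higher and none lower by the authors' deposited table, where 28.4% of all genes were higher and 28.6% lower. APOC3 was at 24330 normalized counts in those libraries, against 5734 in the control vector, by levels rebuilt from the authors' deposited table (log2 2.09, SE 0.04). APOA1 was at 575591, against 195332 in the control vector, from the authors' deposited table (log2 1.56, SE 0.03). APOM was at 1.25 (SE 0.04), APOE at 0.77 (SE 0.03), APOC1 at 0.55, APOA2 at 0.50 and APOH at 0.45 on the log2 scale in the authors' deposited table. APOA5 (0.19, adjusted p = 0.0481) and APOB (0.18, SE 0.03) had the smallest called changes in the authors' deposited table. APOA4 was not called at -0.58 (adjusted p = 0.108 in the authors' deposited table). Over genes averaging 100 or more normalized counts there was a median log2 fold change of -0.10 in this table. Any call on the higher side lies above such a shift by definition, so it is no test of the 9 calls. Markers moved in the same libraries: of the liver identity genes 5 of 8 were higher and 3 lower, with ALB at 1.38, TTR at 0.85, FGA at 0.47 and AFP at 0.34 in the authors' deposited table. Of the biliary markers 1 of 5 was higher and 3 lower, KRT19 at -1.39 and EPCAM at -0.48, and of 2 fibroblast markers COL1A1 was at -3.54 and PDGFRB at 0.59, in the authors' deposited table. Of the immune markers 1 of 3 was higher and 2 lower, VIL1 was higher at 0.26, and neither endothelial marker measured was called, in the same deposited table. Their part in the result was not tested.

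The 3 hairpins against SREBF2, set against the same control pair, were each higher in APOC3, APOA1, APOE, APOC1 and APOA2 by the authors' deposited tables. Hairpin #664 raised 10 of 10 genes, where 24.9% of all genes were higher and 26.8% lower. Hairpin #667 raised 9 of 10, where 18.6% were higher and 19.3% lower. Hairpin #665 raised 5 and lowered 2 of 10, where 18.7% were higher and 20% lower. APOC3 had log2 fold changes of 2.15 (SE 0.03, #664), 1.24 (SE 0.10, #665) and 1.83 (SE 0.11, #667) in the authors' deposited tables. APOA1 had 1.39 (SE 0.02, #664), 0.60 (SE 0.10, #665) and 1.00 (SE 0.10, #667) in the authors' deposited tables. APOE, the receptor ligand, had 0.63, 0.45 and 0.68, and APOC1 had 0.56, 0.29 and 1.01, in the same order and from the same deposited tables.
APOH, APOA5 and APOM each differed in at least 1 pair of these hairpins, by the tests of the next paragraph. APOH was 0.85 (SE 0.02) with #664, -0.35 (SE 0.09, adjusted p = 0.000370) with #665 and 0.13 (adjusted p = 0.225) with #667, in the authors' deposited tables. APOA5 was 0.93 (SE 0.06) with #664, -0.38 (SE 0.16, adjusted p = 0.0469) with #665 and 0.35 (SE 0.11) with #667, by the authors' deposited tables. APOM was 0.16 (SE 0.03) with #664, -0.01 (adjusted p = 0.935) with #665 and 1.29 (SE 0.09) with #667, again from the authors' deposited tables. APOA4, APOB and APOA2 had their highest value of the 3 with #667, at 1.46, 0.42 and 0.90 in the authors' deposited table. For APOB no difference between these hairpins was called by those tests (#664 minus #667 -0.23, SE 0.09, adjusted p = 0.103), but with the covariance of the shared control the adjusted p was 0.0304 for that pair and 0.0139 for #665 minus #667. Liver identity markers did not move as one with these hairpins: of 8, #664 had 4 higher and 3 lower, #665 had 1 higher and 5 lower, and #667 had 3 higher and 3 lower, in the authors' deposited tables. KRT19 (-1.25, -0.54 and -0.87), LYZ (-0.85, -0.67 and -0.29) and COL1A1 (-2.70, -1.14 and -1.61) were lower with #664, #665 and #667 in that order, in the authors' deposited tables. Other markers differed in direction, PDGFRB being at -0.47, 0.59 and 1.29 and VIL1 at 0.46, -0.40 and -0.30 in the authors' deposited tables, and no endothelial marker was called. The part of these markers in the result was not tested.
Differences between the hairpin groups were tested after the data were seen, over 6 pairs, and 37 of 60 gene and pair combinations were called. Hairpin #664 was above #665 in APOA5 (1.31, SE 0.17) and APOH (1.20, SE 0.09), as in APOC3, APOA1 and APOC1, 5 of 10 genes where 6.61% of all genes were above. It was below #667 in APOM (-1.13, SE 0.10, adjusted p = 2.4e-29). With 3 genes above and 4 below, #664 minus #667 had a background of 4.87% above and 4.08% below. Hairpin #665 was below #667 in 7 genes, where 3.14% of all genes were, APOA4 (-1.42, SE 0.35) and APOM (-1.30, SE 0.13) among them. Against the libraries labelled shEZH2, #664 had 3 genes above and 4 below (14.8% and 11.9% of all genes), #665 had 0 above and 6 below (6.5% and 5.53%), and #667 had 3 above and 2 below (10.4% and 8.77%). For #667 minus the libraries labelled shEZH2, the APOM difference was 0.04 (95% interval -0.15 to 0.23). For #664 minus those libraries, the APOC3 difference was 0.07 (95% interval -0.03 to 0.16).

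**Figure D5:**
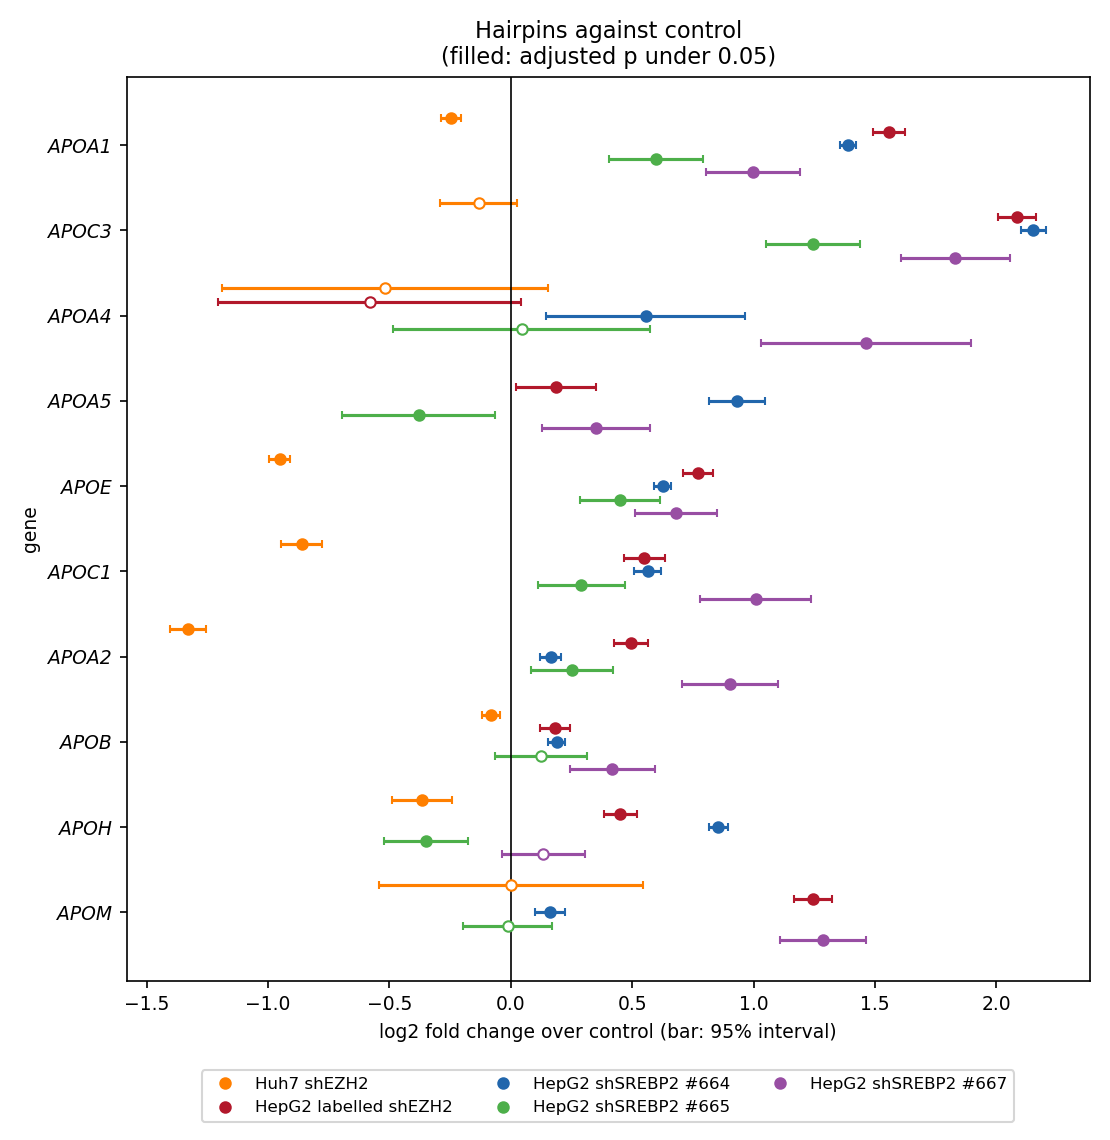
Log2 fold change over control with its 95% interval for each apolipoprotein gene (rows) and hairpin (colours, Huh7 shEZH2 first), filled where the adjusted p is under 0.05. APOC3 and APOA1 lie right of 0 in all 4 HepG2 groups, and APOA2, APOE and APOC1 lie left of 0 in Huh7. The Huh7 intervals use SEs computed back from edgeR's test score and are narrower than that test implies.

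Genes that act around the apolipoproteins were read in lists by role, whose counts stand against the shares called over all genes tested. Those were 8.06% lower and 7.44% higher with MS7126 in HepG2, 16.3% lower and 17.5% higher with MS7126 in Huh7, 19.3% lower and 19.5% higher with shEZH2 in Huh7, and 4.01% lower and 3.01% higher with C24. In HepG2 with MS7126, of 17 assembly and secretion genes with an adjusted p 4 were lower and none higher (median -0.03, against 0.01 over all genes tested): ACAT2, an acetyl-CoA acetyltransferase that feeds sterol synthesis, at -1.92, MTTP, which loads lipid on APOB, at -1.07, DGAT1 at -0.74 and CIDEB at -0.68, in the authors' deposited table. In Huh7 with MS7126, 8 of 18 were lower and 2 higher in the authors' deposited table, led by the cargo receptor SURF4 (-1.59) and ACAT2 (-1.12). The 2 of 18 higher fall below the share over all genes there. With shEZH2 in Huh7, 10 of 18 were lower and 2 higher by edgeR, SOAT2, which esterifies cholesterol, at -1.85 but MTTP at 0.78. With C24, ACAT2 (0.74) and DGAT1 (0.59) were higher and none lower in the authors' deposited table. All these counts of assembly and secretion genes include ACAT2, whose role is in sterol synthesis and not in assembly or secretion.
Among remodelling genes and lipases with MS7126 in HepG2, 3 of 11 were higher and 3 lower in the authors' deposited table, with hepatic lipase LIPC at -1.84 and ANGPTL8, a lipoprotein lipase regulator, at 3.33. In Huh7 LIPC was at -1.34 with MS7126 in the authors' deposited table. With shEZH2 in Huh7, 4 of 14 were higher and 4 lower by edgeR, LIPC being higher at 0.30. Of the receptors, VLDLR was higher (2.61) with MS7126 in HepG2, where 1 of 10 was higher and 3 lower in the authors' deposited table. In Huh7 with MS7126 VLDLR was higher (1.68), with 2 of 9 receptors higher and 5 lower, in the authors' deposited table. Of other apolipoprotein-family genes with MS7126 in HepG2, 5 of 11 were lower and none higher in the authors' deposited table (median -0.87), among them SAA4 (-3.52), APOL1 (-1.52) and APOC2, the lipoprotein lipase activator (-0.96). In Huh7 with MS7126, 6 of 10 genes of that list were lower and none higher in the authors' deposited table. The list also holds genes that are not apolipoproteins, among them NAXE (-0.63) and PON1 (-1.75), both among those 6. With shEZH2 in Huh7, 3 of 11 were higher and 6 lower by edgeR, the acute-phase SAA1 (1.961) and SAA2 (1.18) being higher. PON1 (-0.97) was among the 6 lower.
Of the transcription factors, 6 of 30 were higher and 7 lower with MS7126 in HepG2 by the authors' deposited table, with a median of -0.18. The bile acid receptor NR1H4 was at -1.99, CREB3L3, a hepatic regulator of triglyceride genes, at -1.71 and CEBPB at 1.54, while HNF4A was not called (-0.13, adjusted p = 0.697). In Huh7, NR1H4 was at -1.502 with MS7126 in the authors' deposited table, and with shEZH2 RXRA, the partner of many nuclear receptors, was at -1.12 by edgeR. Next to the chromosome 11 cluster, SIDT2 was lower (-2.12) and SIK3 higher (1.15) with MS7126 in HepG2 by the authors' deposited table, with 1 of 7 neighbours higher and 2 lower. Next to APOE and APOC1, BCAM (-0.69) and APOC2 were lower of 7, and none higher, in the authors' deposited table.

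The genes most like each member were taken as those with the smallest root mean square difference of log2 fold change over the 10 comparisons, over the 10791 genes that averaged 10 or more normalized counts in all 10. The comparisons share controls, so this likeness is a description. APOE was nearest to PLTP, the phospholipid transfer protein (0.16 on the log2 scale), CFB (0.20) and APOC1 (0.21). APOC1 was nearest to APOE (0.21), and APOA2 to APOC1 (0.23). APOA1 was nearest to ALDH6A1 (0.23) and RHBDL1 (0.23), and APOC3 to PRAP1 (0.37), CREB3L3 (0.45), AGXT (0.46) and APOA1 (0.50). APOB was nearest to TMEM230 (0.07) and ASGR2 (0.09), APOH to UBA7 (0.27) and SERPINA6 (0.27), APOM to APTR (0.28) and TM4SF5 (0.31), and APOA4 to GALR2 (0.42). APOA5 has no value in every table and was not ranked. Among the members themselves APOC1 and APOE were closest (0.21), ahead of APOA2 and APOC1 (0.23), while APOA1 and APOC3, neighbours on chromosome 11, were at 0.50. The measure grows with the size of the changes, so genes that move little lie close to each other. It does not say which pairs move in the same direction.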

How the data were processed

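Per the labels' protocols, bulk RNA-seq libraries came from TruSeq v2 and NEBNext Ultra II kits. STAR 2.4.2, Salmon (no version named) and GRCh38 are named in the submitters' processing notes. For 9 comparisons the authors' deposited tables give mean normalized counts (signal), log2 fold changes and their SE, a test score (stat) and p-values, in DESeq2's layout; they were used as deposited. Group levels were rebuilt from the mean and the fold change, which matched known library values within 0.00187 (log2) for 95% of 9855 genes. That check also fixed the direction of the HepG2 tables through their shared controls; the Huh7 MS7126 table has no such partner, so its direction is as deposited. For Huh7 shEZH2 the authors' deposited estimated counts were rounded and tested with edgeR 4.0.16 (R 4.3.3), quasi-likelihood, TMM, with DESeq2 1.42.0 as an alternative. The SE beside edgeR values is the log2 fold change over the square root of the test's F statistic. It is not an SE from the fit, and intervals drawn from it are narrower than that test implies. Differences between comparisons used a two-sided normal test with Benjamini-Hochberg adjustment over all genes. The script was tested on simulated data. Named genes are the 10 members, and of each list those with the largest called changes or a role described; some were chosen after their values were seen. The members and lists were chosen with earlier results of these data known. The median over genes with an adjusted p and the set of promoter motifs were also settled after values were seen. A few genes of the lists are not reported here by name.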

Additional observations from a re-analysis of the deposited data

Results flagged for a closer look

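The response to MS7126 differed between the lines in 3 genes, by the test of the difference of log2 fold changes, HepG2 minus Huh7: -0.86 for APOA1, -1.74 for APOC3 and -0.77 for APOH. Each was lower in HepG2. The labels put the exposure at 48 h in HepG2 and at 24 h or 48 h in Huh7, so line and time cannot be told apart.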

How the results depend on the processing

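Asking also for a change of 2-fold or more left 3 of 5 called genes with MS7126 in HepG2, 0 of 1 with MS7126N2, 1 of 3 with MS7126 in Huh7, 3 of 9 in the libraries labelled shEZH2, 2 of 10 with #664, 1 of 7 with #665 and 4 of 9 with #667. For Huh7 shEZH2, where this was added after seeing the data, it left 1 of 6, APOA2. The share of all genes passing the 2-fold cut is not given here, so these counts have no background beside them. At an adjusted p under 0.01, MS7126N2 had 0. That threshold also ended the calls of APOA5 with MS7126 in HepG2, in the libraries labelled shEZH2 and with #665, of APOE with MS7126 in Huh7, of APOA4 with #664 and of APOA2 with #665. For Huh7 shEZH2, 5649 genes were called by edgeR, 3434 by DESeq2 and 3423 in the authors' deposited table. The cause was not tested. Leaving out 1 library at a time gave 5 to 6 apolipoprotein genes and 4621 to 4866 genes in all. With the replicate number as a block, 6 apolipoprotein genes and 5427 genes were called; the numbers do not pair the libraries (correlation of deviations -0.034). With the covariance of shared controls, 46 hairpin combinations were called in place of 37. No direction reversed. With 2 libraries a group, the spread is poorly known, and APOA4 and, in Huh7, APOA5 and APOM were too low to show modest changes.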
